A study of Mus musculus with 12 samples.

Results

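The data described here are the 4755 array probes that lie on chromosome 1, out of 88737 probes on a mouse CpG island array. Every probe with a chromosome 1 position in build mm9 was taken. The chromosome itself was chosen from measured values, since on 1 of the 12 arrays, CC9spretus replicate 2, the signal of its input DNA was higher there than on any other autosome. The input signal is for that reason given as a description, without a test. The study compared the DNA methylation of 4 mouse embryonic stem (ES) cell lines, with 3 arrays each, that differ in their mitochondrial DNA (mtDNA). All 4 lines carry the nuclear genome of CC9.3.1, an ES cell line from a 129SvEv-Gpi1c(129S6) embryo, and were made by fusing CC9.3.1 cells depleted of mtDNA with enucleated cytoplasts of another cell. CC9mus received the mtDNA of Mus musculus, CC9spretus that of M. spretus, CC9dunni that of M. terricolor and CC9pahari that of M. pahari. All cells were kept for 48 h without feeder cells before DNA was taken, and no group received a treatment. The replicates are given as biological replicates, but the sources used here do not say how many clones stand behind a line or how long each replicate had been in culture. Genomic DNA was measured, so the identity of the cells could not be checked against expressed markers.

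Each array received 2 DNA samples of the same cells. One came from methylated DNA immunoprecipitation (MeDIP), where fragments bound by an antibody against 5-methylcytosine (5mC) are pulled down, and this IP DNA was labelled with Cy5. The other, the input, was total fragmented DNA and was labelled with Cy3. The log2 ratio of IP over input is read as methylation, and division by the input is meant to correct for differences in the amount of DNA and in how well a probe binds. The input signal alone follows the number of copies of a region in the cells, as in comparative genomic hybridisation, besides labelling and scanning effects. ES cells are known to gain whole chromosomes in culture, and a gain carried by part of the cells raises the mean input signal by less than a gain carried by all of them. A probe in a region with more copies should bind more DNA in both channels.

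The input shift, the IP shift and the ratio shift were followed on each array, all on the log2 scale. The input shift of a probe is its log2 input signal, centred on the median of the array, minus the mean of that probe over the 12 arrays. The IP shift and the ratio shift are the same for the Cy5 signal and for log2(IP/input). A shift of 0 therefore means that the array lies at the mean of the 12 arrays for that probe. The shift of a chromosome, window or locus is the median over its probes. Where a value is given against the rest of the array, the median shift of all probes outside chromosome 1 was subtracted.

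The 4755 probes made up 5.36% of the array and ran from position 3521583 to 197067893. They fell into 798 loci, each a cluster of probes whose inner gaps were 1000 bp or less, with a median of 5 probes in a locus and at most 30. Probes were 45 to 60 bases long. Of the chromosome 1 probes, 92.3% to 99.8% per array were well above background in input and 74.2% to 98.4% in IP signal, and no spot was saturated. The arrays came from 8 slides, read on 5 scan days that fell into 2 periods. All 3 CC9mus arrays and replicate 3 of the other lines were scanned in the later period, and replicates 1 and 2 of the other lines in the earlier period. CC9spretus replicate 2 was alone on its slide and scan day, as was CC9spretus replicate 1, so that the array cannot be told apart from its slide or day. CC9mus replicate 1 stood apart in its ratios, whose standard deviation over chromosome 1 probes was 0.52. It was 1.81 and 1.89 on the other CC9mus arrays and 1.02 to 1.33 on the remaining arrays.

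In the deposited processed signals, the input of chromosome 1 was raised on CC9spretus replicate 2 and on no other array to a similar extent. Its shift was 0.27, the highest of the 19 autosomes on that array, while the 18 other autosomes had shifts from −0.07 to 0.13. The shifts of CC9spretus replicates 1 and 3 were 0.03 and 0.05. The CC9mus shifts were −0.05, −0.04 and 0.00, those of CC9dunni were 0.02, 0.02 and −0.05, and those of CC9pahari were −0.07, −0.06 and −0.06. Replicate 2 thus stood above the range of the 11 other arrays, and the 2 other CC9spretus arrays were next in order. With the normexp background correction, the input shift of replicate 2 was 0.12 and that of CC9mus replicate 1 was higher, at 0.15. A chromosome present in 3 copies in place of 2 in every cell would give a log2 difference of 0.58 if the signal were proportional to copies and free of background.

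Against the rest of the array, the order of the arrays was clearer. The input of chromosome 1 was 0.26 above the rest on CC9spretus replicate 2, and 0.03 and 0.07 above it on replicates 1 and 3. It was 0.03, 0.03 and 0.00 above the rest on the CC9dunni arrays. The same differences were −0.08, −0.08 and −0.07 on the CC9mus arrays and −0.07, −0.06 and −0.07 on the CC9pahari arrays. The 3 arrays of CC9mus, CC9dunni and CC9pahari kept close together, with SDs of 0.0049, 0.015 and 0.0043 around means of −0.08, 0.02 and −0.07. The CC9spretus mean was 0.12 ± 0.12 (SD, n = 3) and was 0.05 over replicates 1 and 3 alone. CC9mus and CC9pahari could not be put in order, since their arrays overlapped.

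**Figure D1:**
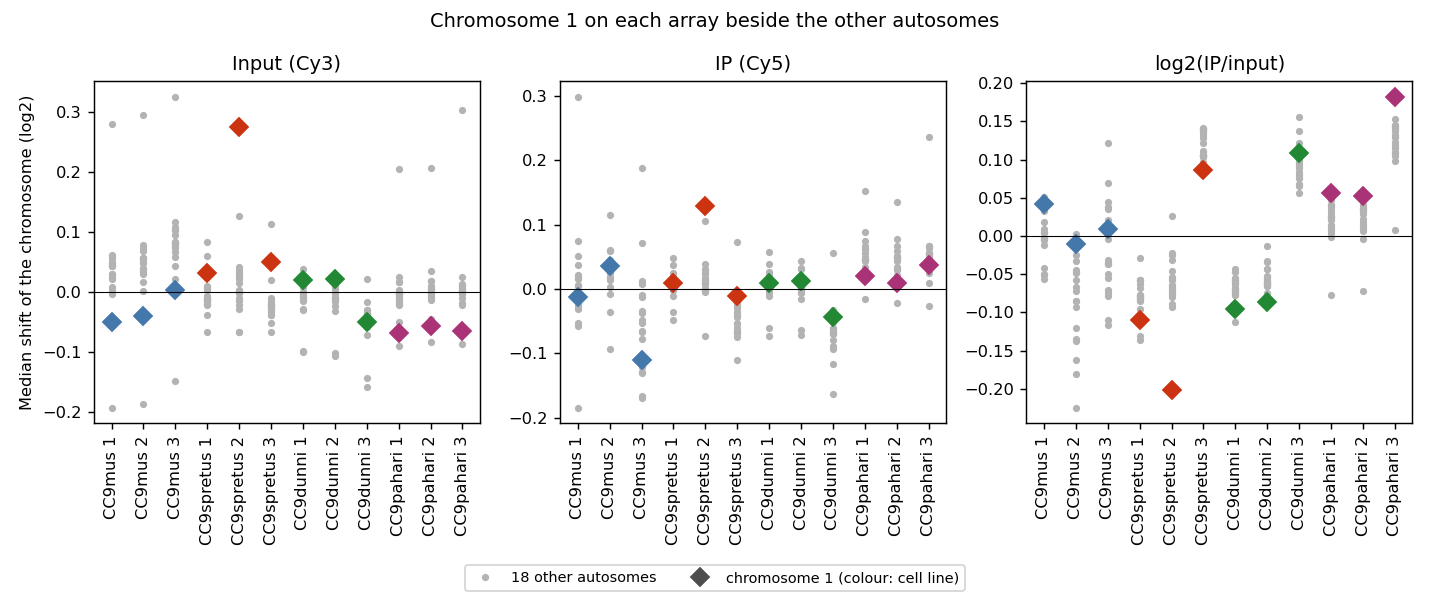
Median shift on the log2 scale (y axis) of chromosome 1 (diamonds, coloured by line) and of the 18 other autosomes (grey points) on each of the 12 arrays (x axis), for input, IP signal and log2(IP/input). On CC9spretus replicate 2 chromosome 1 was the highest autosome in input (0.27) and in IP signal (0.13) and the lowest in the ratio (−0.20). Single grey points far from 0 on the CC9mus and CC9pahari arrays are other chromosomes with a raised or lowered input.

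Against its own line, CC9spretus replicate 2 had an input on chromosome 1 that was 0.23 higher than in replicate 1 and 0.20 higher than in replicate 3, each relative to the same difference over the rest of the array. The median input signal of chromosome 1 probes on the array was 1103 intensity units, and that of all its probes was 917. On the 11 other arrays the median of chromosome 1 stayed between 892 and 1566 units and that of all probes between 875 and 1494.

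The rise was spread over many probes. Of chromosome 1 probes, 75.8% had an input shift above 0 on CC9spretus replicate 2, against 51.0% of the other probes of the array and 41.3% to 55.8% of chromosome 1 probes on the 11 other arrays. The array held the highest of the 12 input values at 28.9% of chromosome 1 probes and at 12.6% of the rest. It held the lowest at 0.40% of chromosome 1 probes and at 10.4% of the rest. Of the 737 loci with at least 3 probes, 652 (88.5%) had an input shift above 0 on this array, and 34.9% to 60.7% had one on the others.

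It was also spread along the whole chromosome. Chromosome 1 was divided into windows of 5 Mb, of which 38 held probes and 34 held at least 20. All 34 windows had an input shift above 0 on CC9spretus replicate 2, and in each of the 34 this array was the highest of the 12. The shifts ran from 0.16 to 0.46 with a median of 0.28 and an SD of 0.07. On the other arrays the SD over the same windows was 0.05 to 0.09, so that the windows of replicate 2 varied about as much as those of arrays without the rise. The 2470 probes proximal to 100 Mb had a shift of 0.28 and the 2285 distal probes one of 0.27. No break was seen between a raised and an unraised stretch at this resolution. A further 2 windows held no probe.

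The highest window, from 20 to 25 Mb, held 79 probes and had an input shift of 0.46 on CC9spretus replicate 2, with −0.20 to 0.16 on the 11 other arrays. The next were 140 to 145 Mb (34 probes), at 0.43, and 65 to 70 Mb (63 probes), at 0.40. The lowest window, from 145 to 150 Mb, held 20 probes and had a shift of 0.16, with −0.15 to 0.12 on the other arrays. It was followed by 75 to 80 Mb (225 probes), at 0.17, and 70 to 75 Mb (218 probes), at 0.20. The second highest and the lowest of the 34 windows were thus neighbours, and both held few probes. The 4 windows with fewer than 20 probes, set aside above, were also above 0, at 0.15 (25 to 30 Mb, 6 probes), 0.55 (45 to 50 Mb, 15 probes), 0.20 (110 to 115 Mb, 19 probes) and 0.16 (195 to 200 Mb, 19 probes). In 3 of these 4 windows the array was not the highest: CC9mus arrays reached 0.54 from 25 to 30 Mb and 0.46 from 110 to 115 Mb, and CC9spretus replicate 3 reached 0.21 from 195 to 200 Mb.

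**Figure D2:**
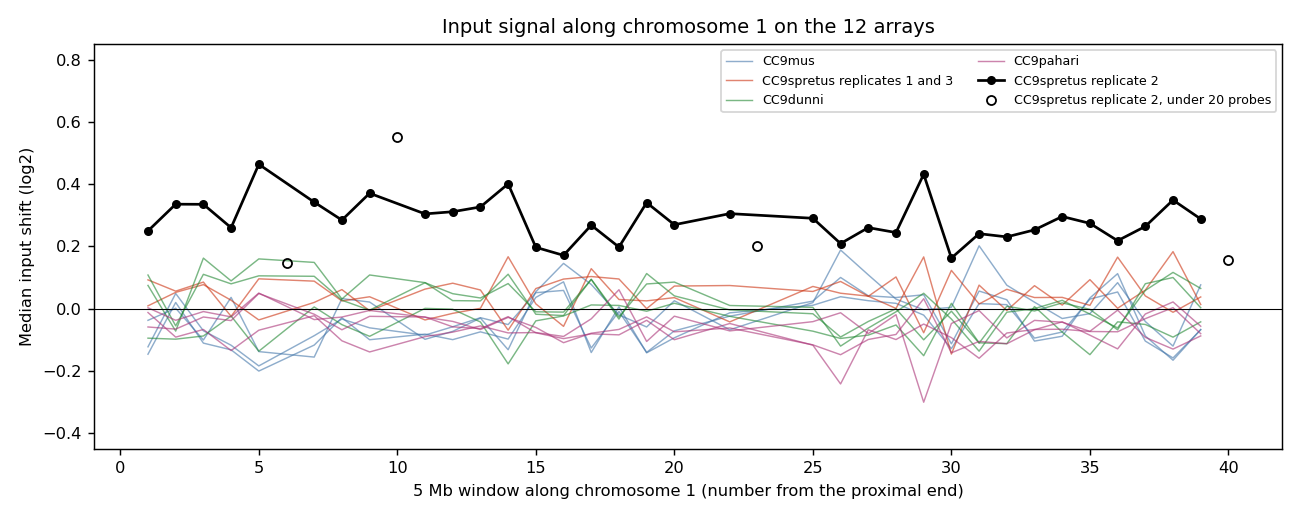
Median input shift on the log2 scale (y axis) of each 5 Mb window along chromosome 1, numbered from the proximal end (x axis), on the 12 arrays. The black line joins the 34 windows with at least 20 probes on CC9spretus replicate 2, open circles are its 4 windows with fewer probes, and coloured lines are the other arrays. The black line ran from 0.16 to 0.46 and lay above every other array in all 34 windows.

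An input shift above 0.1 was found in 34 of 34 chromosome 1 windows on CC9spretus replicate 2 and in 97 of the 435 windows (22.3%) on its other autosomes. On the 11 other arrays, 0 to 6 of the 34 chromosome 1 windows passed 0.1. The share of windows above 0.1 on their other autosomes ran from 0.23% to 38.6%, the highest on CC9mus replicate 3. Single windows beyond 0.2 in size were found on 4 of those arrays, each with 1 window. They were 20 to 25 Mb at −0.20 on CC9mus replicate 1, 150 to 155 Mb at 0.20 on CC9mus replicate 3, 125 to 130 Mb at −0.24 on CC9pahari replicate 1 and 140 to 145 Mb at −0.30 on CC9pahari replicate 3. None of the 4 was part of a run of such windows.

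The smaller ups and downs between windows were mostly more alike between arrays of the same scan period. The correlation of the 34 window shifts ran from −0.26 to 0.95 (median r 0.52) over 30 pairs of arrays of the same period, which include all pairs on 1 slide, and from −0.82 to 0.19 (median −0.52) over 36 pairs of different periods. Between the CC9mus arrays and the arrays of other lines scanned in the same later period, r was −0.26 to 0.39. For the 4 pairs that shared a slide, r was 0.62 to 0.95. For CC9spretus replicate 2, r was 0.57 with replicate 1, of the same period, and −0.74 with replicate 3, of the later period. These r values are descriptions over windows that share probes, probe means and base composition. The level of the whole chromosome on replicate 2 was above that on replicates 1 and 3.

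**Figure D3:**
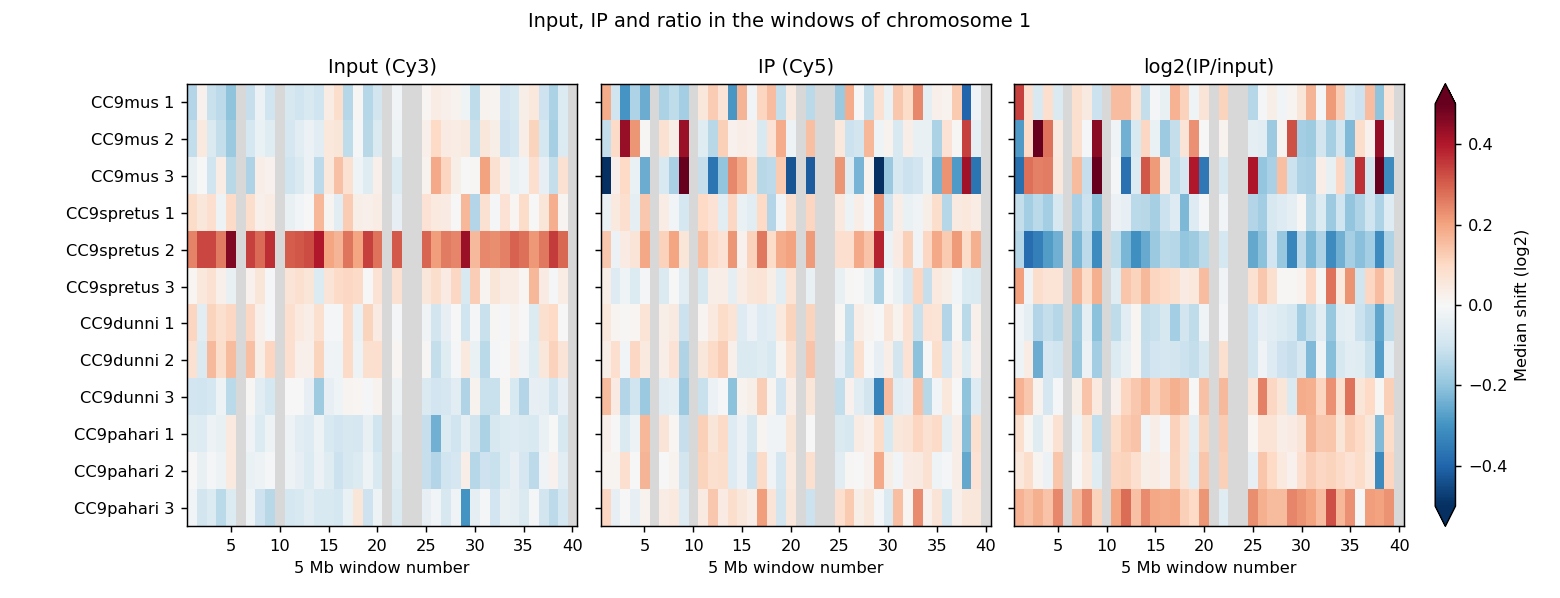
Input, IP and ratio shifts on the log2 scale (colour) of the 5 Mb windows of chromosome 1 with at least 20 probes (columns) on the 12 arrays (rows). The row of CC9spretus replicate 2 was above 0 in all 34 windows in input, above 0 in 31 in IP signal and below 0 in all 34 in the ratio. Other rows came near it in the last 2 measures, with CC9pahari replicate 3 above 0 in 25 windows in IP signal and CC9spretus replicate 1 and CC9dunni replicate 1 above 0 in only 1 window each in the ratio.

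The higher input was seen in probes of every brightness and in every area of the slide. The probes of the array were split into 4 equal groups by mean input level. From the dimmest to the brightest group, the input of chromosome 1 on CC9spretus replicate 2 was 0.29, 0.28, 0.26 and 0.25 above the rest of the array. With the normexp correction the order was reversed, at 0.08, 0.17, 0.19 and 0.21. In the processed signals, the input was 0.26 to 0.27 above the rest in 4 equal areas of the slide. It was 0.24 above for the 3156 probes that were well above background in both channels on all arrays and 0.31 above for the others. By methylation class it varied more. It was 0.36 above the rest for the 628 probes with a mean log2 ratio below −1, 0.28 for the 1887 probes from −1 to 0, 0.22 for the 1550 from 0 to 1, 0.14 for the 500 from 1 to 2, and 0.26 for the 190 above 2. On the other arrays the same classes reached at most 0.07.

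The IP signal of chromosome 1 was also raised on CC9spretus replicate 2 in the deposited processed signals, by less than the input, but its shift was −0.00 with the normexp background correction, under which 6 other arrays were higher. In the processed signals its IP shift was 0.13, the highest of the 19 autosomes on that array, and the shifts on the 11 other arrays ran from −0.11 to 0.04. The shifts were 0.01 and −0.01 on CC9spretus replicates 1 and 3, −0.01, 0.04 and −0.11 on the CC9mus arrays, 0.01, 0.01 and −0.04 on the CC9dunni arrays, and 0.02, 0.01 and 0.04 on the CC9pahari arrays. Replicate 2 was thus the highest array in IP signal as well, and the other 11 overlapped between lines.

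Against the rest of the array, the IP signal of chromosome 1 was higher by 0.11 on CC9spretus replicate 2 and lay from −0.07 to 0.03 on the other arrays. This was 42.5% of the difference in input on the log2 scale. The share of chromosome 1 probes with an IP shift above 0 was 62.1%, against 51.4% of the rest of the array. The IP shift was above 0 in 31 of 34 windows, from −0.03 to 0.39, with 11 to 25 windows on the other arrays, and was the highest of the 12 arrays in 15. Relative to the rest, the IP signal of chromosome 1 on replicate 2 was 0.09 above that of replicate 1 and 0.09 above that of replicate 3.

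As a line, CC9spretus did not pass the test in IP signal. Its mean IP shift on chromosome 1 was 0.04 ± 0.08 (SD, n = 3) and that of the other 9 arrays was −0.00 ± 0.05 (SD, n = 9), a difference of 0.05. In a two-sided exact permutation test over the 220 choices of 3 of 12 arrays, p was 0.264. The p of this test was 0.527 after Benjamini-Hochberg adjustment over 8 tests, 4 lines by 2 measures, IP signal and ratio. The smallest p that this test allows is 0.00455. Without CC9spretus replicate 2 the difference was 0.00, so that the difference of the line rested on this array.

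The ratio of chromosome 1 moved the other way on CC9spretus replicate 2. It contains the input in its denominator and is no independent measure of a chromosome chosen by its input, so that its values are given as a description. The ratio shift was −0.20, the lowest of the 19 autosomes on that array and of the 12 arrays, and was −0.10 with the normexp correction. It was −0.11 and 0.09 on CC9spretus replicates 1 and 3, 0.04, −0.01 and 0.01 on the CC9mus arrays, −0.09, −0.09 and 0.11 on the CC9dunni arrays, and 0.06, 0.05 and 0.18 on the CC9pahari arrays. Chromosome 1 also ranked last of the 19 autosomes in the ratio on CC9spretus replicate 3 and CC9dunni replicate 2, but there the difference from the rest of the array was −0.03 on both. On all 3 CC9pahari arrays it ranked first, with differences from the rest of 0.04, 0.03 and 0.06.

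Against the rest of the array, the ratio of chromosome 1 was 0.14 lower on CC9spretus replicate 2 and lay from −0.03 to 0.07 on the other arrays. A ratio shift above 0 was found for 30.5% of chromosome 1 probes on replicate 2, against 44.5% of the rest. The shift was below 0 in all 34 windows, from −0.38 to −0.09, and was the lowest of the 12 arrays in 23. Being below 0 in nearly all windows was shared with some other arrays of the earlier scan period. The ratio was above 0 in 1 window on CC9spretus replicate 1 and CC9dunni replicate 1 and in 3 on CC9dunni replicate 2. On CC9pahari replicates 1 and 2, of the same period, it was above 0 in 27 and 29 windows. Of the 737 loci with at least 3 probes, 501 (68.0%) had an IP shift above 0, with 42.1% to 59.3% on the other arrays, and 584 (79.2%) a ratio shift below 0, with 23.3% to 68.1% on the others. In the processed signals, most of chromosome 1 thus had more input, somewhat more IP signal and a lower ratio on this array than the mean of the 12. With the normexp correction, 49.5% of its chromosome 1 probes had an IP shift above 0.

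**Figure D4:**
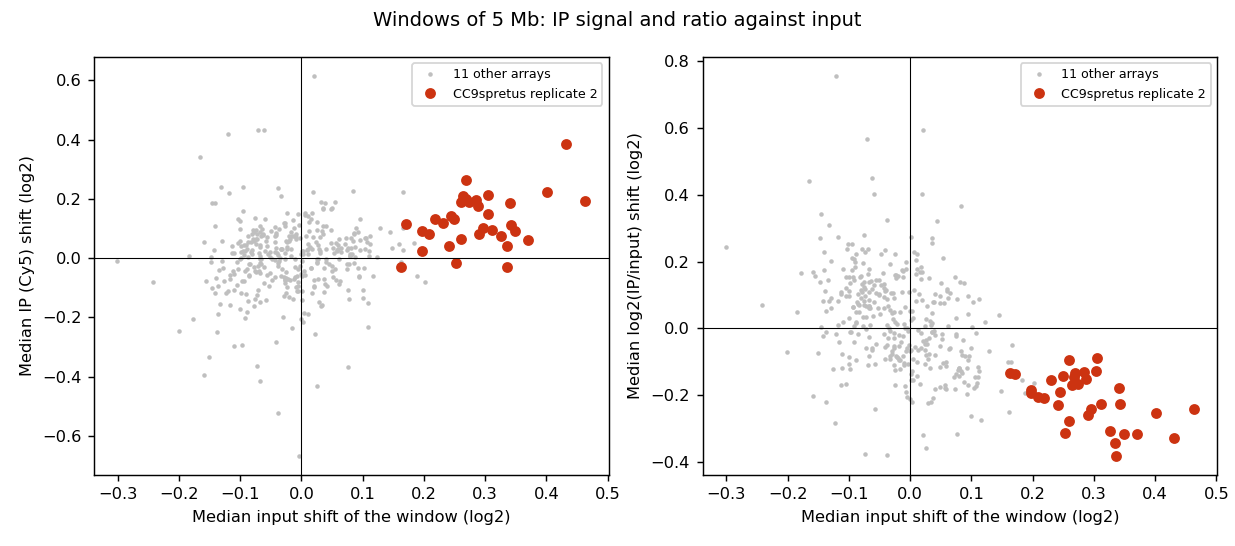
IP shift (left, y axis) and ratio shift (right, y axis) against input shift (x axis), all on the log2 scale, for the 34 windows of chromosome 1 on CC9spretus replicate 2 (red) and on the 11 other arrays (grey). The red points lay to the right of nearly all grey points, mostly above 0 in IP signal (31 of 34) and all below 0 in the ratio.

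From window to window, IP signal and ratio followed the input loosely. On CC9spretus replicate 2 the correlation over 34 windows was r = 0.40 between input and IP shift and r = −0.50 between input and ratio shift. The same r values ran from −0.21 to 0.54 and from −0.39 to 0.05 on the other arrays. The points share the array, and input and ratio share the input signal. The 140 to 145 Mb window was high in both channels, with an input shift of 0.43 and an IP shift of 0.39, and its ratio shift was −0.33. The 5 to 10 Mb window had an input shift of 0.34 with an IP shift of −0.03, and its ratio shift of −0.38 was the lowest of the 34.

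How far the IP signal followed the input differed with methylation class. On CC9spretus replicate 2, against the rest of the array, the IP signal was 0.24 higher for chromosome 1 probes with a mean log2 ratio below −1, where input was 0.36 higher. It was 0.12 higher from −1 to 0, 0.06 from 0 to 1, 0.07 from 1 to 2, and 0.25 above 2. The ratio was lower than in the rest by 0.15, 0.16, 0.14, 0.08 and 0.07 in the same order. In the class above 2, where IP and input were raised by nearly the same amount, the 11 other arrays ran from −0.15 to 0.24 in the ratio, so that the value of replicate 2 was not outside them. The 5 classes were formed from ratios of these 12 arrays, replicate 2 included.

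**Figure D5:**
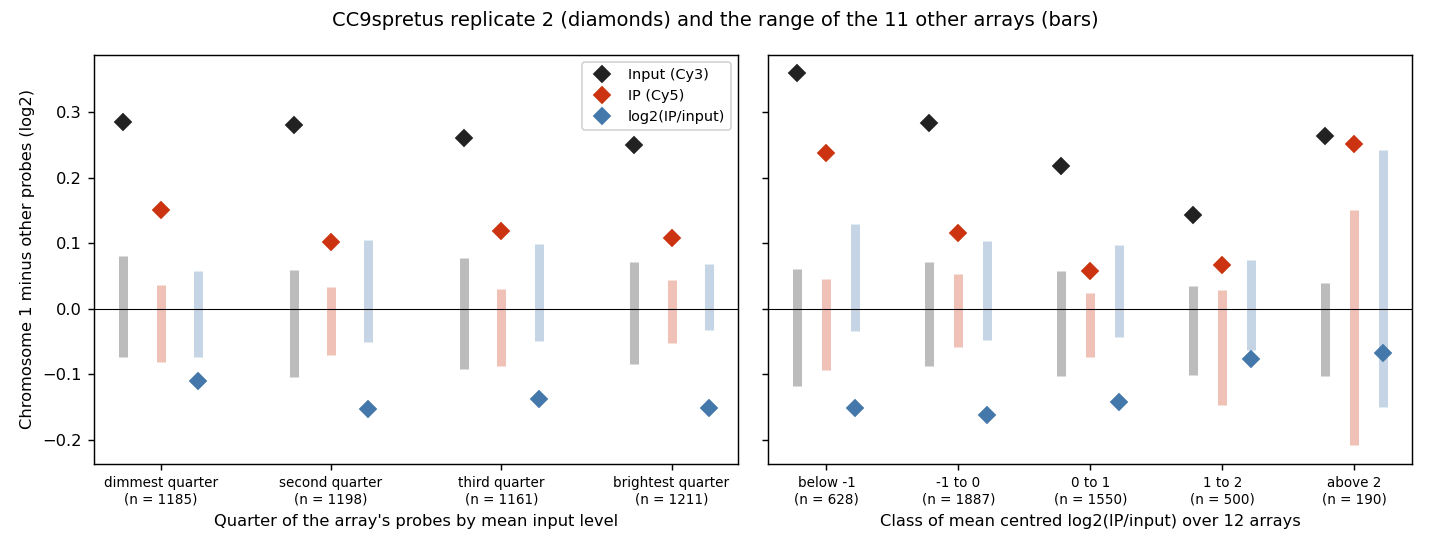
Difference between chromosome 1 and the rest of the array on the log2 scale (y axis) in input, IP signal and ratio on CC9spretus replicate 2 (diamonds) beside the range of the 11 other arrays (bars), for probes grouped by mean input level (left, x axis) and by mean log2(IP/input) over the 12 arrays (right, x axis). Its input was above all other arrays in every group (0.14 to 0.36), and its ratio was below all of them in every group but that with a ratio above 2.

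Chromosomes with a higher input in other lines also had a higher IP signal. On the 3 CC9mus arrays, chromosome 6 (4040 probes) had an input 0.26 to 0.27 above the rest, and the IP signal showed 123%, 34.7% and 93.0% of that difference. On the 3 CC9pahari arrays, chromosome 8 (4989 probes) had an input 0.21 to 0.32 above the rest, and the IP signal showed 49.6%, 46.9% and 62.5% of it. The 42.5% of chromosome 1 on CC9spretus replicate 2 lay within the wide range of the CC9mus arrays and below that of the CC9pahari arrays. The input of chromosome 1 against the rest was 0.26 on CC9spretus replicate 2, and 0.03 and 0.07 on replicates 1 and 3 of that line.

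The size of these values and the rank of the IP shift differed with the normexp correction. It differs from the deposited processing in more than the background step. It used an offset of 50 and no spatial detrending or dye normalisation, and these steps were not tested apart. With the normexp correction of the unprocessed spot signals in place of the deposited processed signals, the input shift of chromosome 1 on CC9spretus replicate 2 was 0.12 and that of CC9mus replicate 1 was higher, at 0.15. Against the rest of the array, replicate 2 was again the highest, at 0.15, with −0.06 to 0.03 on the other arrays. The IP shift of replicate 2 was then −0.00, with −0.16 to 0.06 on the other arrays, of which 6 were higher, and 49.5% of its chromosome 1 probes were above 0. Against the rest, its IP signal was still the highest, at 0.04, with −0.03 to 0.01 on the other arrays. The input difference grew with brightness under this correction, from 0.08 in the dimmest of the 4 groups to 0.21 in the brightest.

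Across all arrays, methylation on chromosome 1 was close to that of the rest of the array. The mean log2 ratio over the 12 arrays was above 2 for 190 of its probes (4.00%) and for 5.25% of the other probes, and its median was −0.06 on chromosome 1 and −0.02 elsewhere. Of the 798 loci, 41 had a mean ratio above 2 and 0 had one below −2. CpG islands are mostly unmethylated in ES cells, and loci with a high ratio are the exceptions. The files name no genes for these probes and the annotation at hand is of another build, so that loci are given by position only.

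The 5 loci with the highest ratios lay at chr1:134125573-134126025 (5 probes), chr1:73953929-73954121 (2 probes), chr1:37932157-37932726 (6 probes), chr1:176766931-176767315 (3 probes) and chr1:133026181-133026547 (4 probes). Their mean log2 ratios over the 12 arrays were 5.84, 5.39, 5.28, 5.11 and 4.79. At the first, the ratio was 2.75, 5.96 and 6.89 on the CC9mus arrays, 5.45, 5.70 and 7.60 on the CC9spretus arrays, 5.83, 5.66 and 7.05 on the CC9dunni arrays, and 5.57, 5.45 and 6.22 on the CC9pahari arrays. CC9mus replicate 1 was the lowest array at all 5 loci, with 2.18 to 2.75, and the lines overlapped. On CC9spretus replicate 2 their input shifts were 0.26, 0.42, 0.19, 0.28 and 0.36. All 5 were above 0, but this array was the highest of the 12 only at chr1:73953929-73954121.

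The 3 loci with the most probes had low ratios. They lay at chr1:88421464-88425252 (30 probes), chr1:180457448-180461093 (30 probes) and chr1:57026594-57030436 (25 probes), with mean log2 ratios of −0.28, −0.53 and −0.25. At the third, the CC9mus arrays had −0.33, −0.64 and −0.82, the CC9spretus arrays −0.28, −0.42 and −0.16, the CC9dunni arrays −0.21, −0.21 and 0.11, and the CC9pahari arrays −0.00, −0.00 and −0.07. The input shifts of the 3 loci on CC9spretus replicate 2 were 0.11, 0.08 and 0.17, lower than the median of the chromosome, and in none of them was this array the highest of the 12.

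The study's methods give a cutoff on differential methylation ratios between samples, a log2 ratio beyond 2 in size, followed by a filter on Z-scores that was not repeated here. A threshold of 2 was applied here to the mean log2(IP/input) of the 3 arrays of a line, without a test. In CC9mus, 370 chromosome 1 probes (7.78%) were above 2, where the whole array had 9.39%, and 144 (3.03%) were below −2, where it had 3.25%. In CC9spretus 179 probes (3.76%) were above 2, with 5.16% on the whole array, and 76 (1.60%) were below −2, with 1.08%. In CC9dunni 198 (4.16%) were above 2, with 5.32%, and 34 (0.72%) below −2, with 0.586%. In CC9pahari 177 (3.72%) were above 2, with 4.71%, and 9 (0.19%) below −2, with 0.124%. Chromosome 1 held a smaller share of probes above 2 than the whole array in all 4 lines.

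Among the calls below −2, those in CC9spretus changed most with the centring of single chromosomes. When each chromosome was centred on its own median on each array, 47 chromosome 1 probes (0.99%) were below −2 in CC9spretus in place of 76, and the whole array had 1.06%. In the other lines the same step changed the count by at most 2 probes. Without CC9spretus replicate 2 the count was 90 (1.89%), with 1.59% on the whole array, and centring each chromosome then lowered it to 70 (1.47%), with 1.54% on the whole array.

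Between lines, the log2 ratio of every probe was tested with limma, each line against the mean of the other 3, with Benjamini-Hochberg adjustment over all 88737 probes. In CC9mus, 189 of the 4755 chromosome 1 probes (3.97%) at 129 loci had an adjusted p under 0.05, 123 higher and 66 lower, while the whole array had 4.57%. The share of calls on chromosome 1 was thus near that of the array and slightly below it. In CC9spretus 0 chromosome 1 probes passed (0.00113% of the array), in CC9dunni 0 (0% of the array) and in CC9pahari 0 (0% of the array). At an unadjusted p under 0.05 in limma, the counts on chromosome 1 were 1333 (28.0%) in CC9mus, 110 (2.31%) in CC9spretus, 259 (5.45%) in CC9dunni and 155 (3.26%) in CC9pahari. The whole array had 28.9%, 1.97%, 4.85% and 3.23% in the same order, so that each share was near that of the array.

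The chromosome 1 calls in CC9mus were not stable. All 3 CC9mus arrays were scanned in the later period, and with scan period as a block, with slide as a random block or within the later period 0 probes passed. Without CC9mus replicate 1, whose ratios had the smallest spread, 1880 chromosome 1 probes passed, with 40.4% on the whole array. Without CC9mus replicate 2 the count was 0, without replicate 3 it was 8, with 0.14% on the whole array, and without any 1 of the 9 arrays of CC9spretus, CC9dunni and CC9pahari it was 0. With the normexp correction 1 passed, with 0.027% on the whole array. With the arrays scaled to equal spread 519 passed, with 12.1% on the whole array, and with the replicate number as a block 396 passed, with 8.42%. The difference of A_68_P20416027, a rise, was 3.27, 3.05 with scan period and 3.45 with slide as the block. That of A_68_P20640397, another rise, was 2.94, 2.58 and 3.09. Over all alternatives the rise at position 37086004, 2.83 in the main fit, went as low as 0.99.

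The probe with the largest rise in CC9mus, A_68_P20416027 at chr1:89050782-89050826, had log2 ratios of 0.22, 1.99 and 4.67 on the CC9mus arrays and −1.40 to −0.59 on the 9 others. Its difference was 3.27 ± 0.66 (SE, limma, adjusted p = 0.0405). The next rise was A_68_P20640397 at chr1:137481445-137481489, with 0.09, 1.53 and 3.78 on the CC9mus arrays and −1.85 to −0.51 on the others, a difference of 2.94. At both, the 3 CC9mus arrays were far apart. That they lay above all 9 others follows from how these probes were picked. The other 3 rises, of 2.73 to 2.86, began at positions 63294809, 37086004 and 157584332.

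The largest fall in CC9mus was A_68_P20350461 at chr1:74829526-74829570, with 0.13, 1.04 and 3.37 on the CC9mus arrays and 3.59 or more on each of the others, a difference of −3.14 ± 0.63 (SE, limma, adjusted p = 0.0405). A_68_P20620972 at chr1:134257371-134257415 had 0.72, 2.56 and 2.81 on the CC9mus arrays and 4.31 to 5.66 on the others, without CC9pahari replicate 3, where the spot was an outlier, a difference of −2.92. The other 3 falls, of −2.65 to −2.29, began at positions 37932274, 120733925 and 75381669. The first of these lay in the locus at chr1:37932157-37932726, among those with the highest mean ratios of the chromosome. At all 5 falls CC9mus replicate 1 was the lowest of the 12 arrays, and at the rises it was the lowest of its line.

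In the other lines the chromosome 1 probe with the lowest p is given as one that did not pass. In CC9spretus it was at chr1:52784387-52784441, with ratios of −1.85, −1.96 and −1.61, a difference of −1.07 and an adjusted p in limma of 1.00. Its input shift on CC9spretus replicate 2 was 0.82. In CC9dunni it was at chr1:163100689-163100748, with −2.83, −2.18 and −1.88, a difference of −1.50 and an adjusted p in limma of 0.846. In CC9pahari it was at chr1:54983378-54983422, with 2.53, 2.35 and 0.96, a difference of 2.14 and an adjusted p in limma of 0.964. The 3 arrays of the line lay outside the range of the other 9 in CC9spretus and CC9pahari and overlapped with it in CC9dunni. Probes picked for the lowest p tend to be separated in this way, so the separation adds no support.

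Over all chromosome 1 probes, the median difference of a line from the other 3 in the ratio was −0.11 in CC9spretus, where the median over the whole array was −0.02, and 0.01 in CC9mus, −0.03 in CC9dunni and 0.14 in CC9pahari, where the array medians were −0.06, −0.02 and 0.09. Without CC9spretus replicate 2 the CC9spretus median was −0.04, with 0.02 over the whole array. Within the earlier scan period, the chromosome 1 input of CC9spretus was 0.17 above that of the other lines relative to the rest of the array (2 against 4 arrays), its IP signal was 0.07 above and its ratio differed by −0.09. Without CC9spretus replicate 2, which carried most of these differences, they were 0.05, 0.01 and −0.03 (1 against 4 arrays). Within the later period, with 1 CC9spretus array against 5, the values were 0.13, 0.04 and −0.08.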

How the data were processed

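Per the labels, MeDIP started from 3 µg of DNA, and 120 to 250 ng of IP DNA (Cy5) and 400 ng of input (Cy3) were labelled. The dyes were the same way round on all arrays. The processed signals they deposited are in units of intensity, from Agilent Feature Extraction (11.0.1.1 in the array files, 11.0.1.0 in the submitters' processing notes), after background subtraction, spatial detrending and linear dye normalisation. The deposited ratios are log10 of IP over input, per the file headers, and the table of the whole series held the same values. The authors' later steps in CytoGenomics and SPSS were not repeated.

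Samples were grouped by their titles. Log2 signals and log2(IP/input) were computed from the deposited intensities, outlier spots were left out and the median of each array was subtracted. Positions are those of the array files, in mm9. The 326 probes without a position were kept for centring and tests. Chromosome 1, the array and the lists were chosen with earlier results of these data known. Windows of 5 Mb needed 20 probes. Exact permutation tests used 1 value per array, and limma 3.58.1 (R 4.3.3; lmFit, eBayes, 4 line means, 8 residual degrees of freedom) all probes. Scripts, in Python 3.11.15 (numpy 2.4.6, pandas 2.3.3, matplotlib 3.10.9) and R, were tested on simulated data.

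Named were the 3 highest and 3 lowest windows on CC9spretus replicate 2, windows beyond 0.2 in size on other arrays, the 5 largest rises and 5 largest falls per line passing an adjusted p of 0.05 with no overlap between the 3 arrays of the line and the 9 others (1 per locus, with all 3 arrays of the line measured), otherwise the probe with the lowest p, and the loci with the highest ratio (5) and most probes (3). Other probes are given by position, beyond 2 named rises and 2 named falls. Alternatives were other centrings and references, normexp (offset 50), dim probes left out, outlier spots kept, window means, the deposited ratio, equal spread of arrays, blocks for replicate number, slide and scan period, and each array left out. Added after the data were examined were values against the rest of the array or the other autosomes, the earlier scan period as reference, each chromosome centred on its own median, fits within a scan period, and the earlier period without CC9spretus replicate 2. The number of arrays, 3 per line, limits the precision.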

Additional observations from a re-analysis of the deposited data

How the results depend on the processing

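On CC9spretus replicate 2, leaving any 1 other array out of the probe mean gave input shifts of 0.27 to 0.28, IP shifts of 0.12 to 0.13 and ratio shifts of −0.21 to −0.19. The input shift was 0.32 against the mean of the 9 arrays of the other lines and 0.23 against the 6 arrays of the earlier scan period. With normexp it was 0.12, and 0.15 against the rest of the array. The IP shift with normexp was −0.00 (−0.00212), and 0.045 against the rest, and the ratio shift was −0.10 both ways. The cause was not tested.

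In the exact permutation test, CC9spretus differed from the other lines by 0.05 in IP signal (p = 0.264, 0.527 adjusted over 8 tests). Its ratio differed by −0.10. Leaving out 1 array gave differences of CC9spretus from the other lines of 0.00 to 0.07 in IP signal, with no adjusted p under 0.05. The ratio differences were −0.18 to −0.05. Against the rest of the array, a setting chosen after seeing the data, the ratio difference was −0.10. The IP difference was then 0.06 with an exact permutation p of 0.0364, and 0.145 adjusted over 8 tests. Without CC9spretus replicate 2 the IP difference was 0.03. That array was chosen for its high input and the setting after seeing the data, so this p supports nothing on its own. The ratio contains the input that chose the chromosome, so no p is given for it, though its tests are counted among the 8. Permutation within replicate numbers (a replicate block) gave an exact p of 0.203 for the IP difference of 0.05. The numbers were not taken to pair the samples, since the deviations of same-numbered arrays did not all correlate above 0.1: r ran from −0.37 to 0.50 (median 0.14) and passed 0.1 in 12 of 18 pairs, against a median of −0.11 and 13 of 36 for different numbers. Same-numbered arrays of CC9spretus, CC9dunni and CC9pahari, which also share a scan period, had r of 0.12 to 0.50, and those with CC9mus −0.37 to 0.22.

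For CC9mus against the other lines, 189 chromosome 1 probes (4.57% of the whole array called) became 519 with arrays scaled to equal spread (12.1%), 396 with the replicate block (8.42%), 1 with normexp (0.027%) and 0 with slide as a random block, with scan period as a block or within the later period. Leaving out 1 array gave 0 to 1880 (0% to 40.4%). Ratios not centred, the deposited ratio, dim probes left out and each chromosome centred on its own median gave 197 to 246 (4.56% to 6.21%). CC9dunni had 3 with equal spread (0.0237%) and 0 otherwise, and CC9spretus and CC9pahari had 0 in all 23 alternatives run for each. For the 10 probes named in CC9mus the direction was the same in all 22 alternatives run (21 for A_68_P20620972, which had no value within the later period), and 7 or 8 of these kept the call.

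A correction for base composition was not run, since no probe sequences were used here. A shift in 1 array has no replicate, and its slide and scan day cannot be told apart from it.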

Other observations

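A further 23 probes are assigned to unplaced sequence of chromosome 1 and were not counted among the 4755. Their median input shift was 0.16 on CC9spretus replicate 2, and −0.02 on both of CC9spretus replicates 1 and 3. It was 0.13, 0.19 and 0.05 on the CC9mus arrays, 0.02, −0.04 and −0.09 on the CC9dunni arrays, and −0.14, −0.16 and 0.13 on the CC9pahari arrays, so that CC9mus replicate 2 was higher than CC9spretus replicate 2.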
